A study of Mus musculus with 22 samples.

Results

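The efferent cholinergic synapse of outer hair cells was followed through 8 of its genes in all 22 libraries of a ribosome pulldown series on the mouse cochlea. They were Chrna9, Chrna10, Chrna1, Chrnd and Chrng (acetylcholine receptor subunits), Rapsn (a receptor-clustering scaffold), and Kcnn2 and Kcnma1 (calcium-activated potassium channels). They were taken by name, 8 of 49671 gene identifiers in the files, and all 8 names matched 1 identifier each. Only 5 of them reached a CPM (counts scaled to a library total of 1000000) of 1 in at least 2 libraries, the minimum for testing, as did 18737 genes in all. Chrnd, Chrng and Rapsn did not.

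All mice carried PrestinCreERT2/+ and RiboTagHA/+, whichever library they gave. Tamoxifen turns on a Cre made from the prestin gene of outer hair cells, and Cre adds a haemagglutinin (HA) tag to a ribosomal protein in the cells where it acts. The dose was 3 mg per 40 g of body weight before 21 days of age and 9 mg per 40 g from then on, so that dose and age cannot be told apart. RNA on tagged ribosomes, pulled down with an HA antibody, made the IP libraries, and total RNA of the whole cochlea, with no antibody, made the input libraries. Each fraction had 2 libraries at P8, P14, P28 and 6 weeks and 3 at 10 weeks, from separate biological samples by the series' design text, which gives P21 where the sample labels give P28. The comparison asks which transcripts were richer on outer hair cell ribosomes than in the organ as a whole.

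Efferent fibres from the brainstem release acetylcholine onto the base of outer hair cells and damp the amplification of sound. The receptor there is built from the alpha9 and alpha10 subunits and lets calcium into the cell. Calcium then opens SK2 potassium channels (Kcnn2), so that a receptor related to excitatory ones inhibits the cell. Chrna1, Chrnd and Chrng encode subunits of the receptor of embryonic skeletal muscle, where rapsyn (Rapsn) holds receptors in clusters under the nerve ending. Kcnma1 encodes the large-conductance BK channel, which both calcium and voltage open.

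Stretches before the start sites of the 3 receptor genes that passed the minimum are shown because 2 of them were higher and 1 lower in IP. They are RefSeq sequences (build GRCm38.p6, 5′ to 3′ on the gene's own strand), and 5 of the 8 genes had an entry. The RefSeq start of Chrna9 lies inside the longer gene that GENCODE annotates. For Chrna10 the 115 bases nearest the RefSeq start are left out, so the 135 bases shown do not reach it. Capitals mark the E-box CANNTG, a motif bound by basic helix-loop-helix factors, which reads the same on both strands.
Chrna9, chr5:65966874-65967123, + strand: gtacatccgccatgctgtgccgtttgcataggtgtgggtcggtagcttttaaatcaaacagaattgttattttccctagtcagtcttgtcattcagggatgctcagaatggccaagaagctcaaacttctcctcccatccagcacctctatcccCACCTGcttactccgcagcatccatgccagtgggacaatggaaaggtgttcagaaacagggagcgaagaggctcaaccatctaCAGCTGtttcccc
Chrna10, chr7:102116829-102116963, - strand: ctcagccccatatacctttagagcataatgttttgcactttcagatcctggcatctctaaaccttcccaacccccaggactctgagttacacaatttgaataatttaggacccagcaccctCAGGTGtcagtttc
Chrna1, chr2:73580339-73580588, - strand: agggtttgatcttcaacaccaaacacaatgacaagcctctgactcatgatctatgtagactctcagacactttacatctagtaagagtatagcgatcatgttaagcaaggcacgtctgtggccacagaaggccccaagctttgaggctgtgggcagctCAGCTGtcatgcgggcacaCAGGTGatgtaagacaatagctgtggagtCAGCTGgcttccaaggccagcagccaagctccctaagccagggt

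The E-box occurred 2 times in the 250 bases of Chrna9, 1 time in the 135 bases of Chrna10 that lie outside annotated exons and 3 times in the 250 bases of Chrna1. Of 32851 such windows of 250 bases, 66.2% held it. The Chrna10 stretch is shorter than these windows, so the shares given here are not for a stretch of its length. The letters GTTGCC, part of the site of RFX factors, were in 10.4% of windows on either strand and in none of the 3 stretches. The same held for AGATAA, a site of zinc finger factors of the GATA family, which 9.99% of windows had.

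Library depth ran from 30757875 to 71023032 reads, so that 3 reads, the most that a count of 0 allows by counting error, were worth 0.0422 to 0.0975 CPM. A set of 3 libraries stood apart, with 9853 to 10870 genes at 1 CPM or more where the median library had 14657. These were P8 input 2, in which Gm42418, a locus that overlaps ribosomal RNA, took 58.3% of gene reads, P14 IP 1 and P28 IP 2. Of 10 outer hair cell markers, 7 were higher in IP over all ages and 0 lower, among them the transcription factor Ikzf2 (log2 change 2.48 ± 0.33 SE) and oncomodulin, Ocm (2.31 ± 0.31). Slc26a5, the prestin gene itself, had 15.5 CPM in IP and 4.41 in input on average and did not pass (0.74 ± 0.43, limma adjusted p = 0.111). The summed CPM of the 10 markers ran from 301 to 1100 in IP and from 40.0 to 345 in input. Markers of other cells were not all lower in IP. Of 8 supporting cell markers 2 were higher and 4 lower over all ages, and of 7 inner hair cell markers 1 was higher and 3 lower. Reads outside genes made up 20.2% to 47.7% of IP libraries and 11.1% to 20.4% of input libraries.

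Changes below are differences of log2(CPM + 1), IP minus input, from limma fitted over all genes and libraries and tested two-sided on CPM as deposited. They are given relative to the median of all genes, which lay at 0.13 over all ages, 0.74 at P8, -0.28 at P14, -0.03 at P28, 0.27 at 6 weeks and -0.01 at 10 weeks. Each p tests the difference against 0 before this median is taken off, so it does not test the relative value printed beside it. At P8 the differences before this step were 3.61 for Chrna10 and 2.59 for Chrna9. Under TMM scaling, which allows for differences in RNA composition, the median at P8 was -0.03. Calls were made at p under 0.05 after Benjamini-Hochberg adjustment over the 18737 genes of a contrast. This scale understates the change of genes with low values.

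Both subunits of the hair cell receptor, Chrna9 and Chrna10, were higher in IP than in input over all ages, and the muscle subunit Chrna1 was lower. The channels Kcnn2 and Kcnma1 did not pass in either direction. These 3 called genes, of the 5 tested, stand beside 32.5% of all tested genes called in that comparison, 20.0% higher and 12.5% lower. With so wide a background, the count by itself says little of these genes, and the size and constancy of each change follow gene by gene.

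Chrna9 (ENSMUSG00000029205, chr5:65934921-65977326, + strand, GRCm38) encodes alpha9, the subunit on which the hair cells' answer to acetylcholine depends. In IP its level was 16.4 and 8.34 CPM at P8, 24.0 and 1.83 at P14, 2.44 and 1.86 at P28, 4.22 and 1.94 at 6 weeks, and 29.0, 9.62 and 12.1 at 10 weeks. In input it was 2.08 and 0.465 at P8, 7.47 and 0.434 at P14, 2.30 and 0.116 at P28, 1.64 and 0.633 at 6 weeks, and 2.18, 1.43 and 1.69 at 10 weeks. IP was above input without overlap at P8, 6 weeks and 10 weeks, as were 29.5%, 39.4% and 23.2% of all tested genes at those ages. At P14 the groups overlapped, the libraries numbered 1 being the higher in both fractions, and at P28 the higher input library lay between the IP pair. IP of Chrna9 was above input of the same age and number in 11 of 11 cases, as was that of 6.03% of all tested genes. No label says that a number marks a pair, and the reported fit did not use the numbers.

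Over all ages Chrna9 rose by 1.47 ± 0.41 (SE) on the log2 scale, with a limma adjusted p of 0.00170. The mean level was 10.2 ± 9.46 CPM (SD, n = 11) in IP and 1.86 ± 2.01 (n = 11) in input. It was called in 34 of 34 alternative analyses, with changes between 1.10 and 2.03 and adjusted p up to 0.0256. Without the 3 libraries that stood apart the change was 1.15 (limma adjusted p = 0.0158).

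By age, Chrna9 was the 1 gene of the 8 called at 10 weeks (2.56 ± 0.78, limma adjusted p = 0.0444), where 4.21% of all genes were called. This call was lost on leaving out any of the 6 libraries of that age (adjusted p 0.0923 to 0.213) and either library of either fraction at 6 weeks (0.0572 to 0.0603). It held in 22 of 35 alternatives. At P8 the change was 1.85 ± 0.96 (limma adjusted p = 0.0650), at P14 1.55 ± 0.96 (0.483), at P28 0.74 ± 0.96 (0.730) and at 6 weeks 0.65 ± 0.96 (0.819). Leaving out P8 input 1 gave 1.32 at P8, with P8 input 2, the library rich in Gm42418, as the only P8 input library. Leaving out P14 IP 1, P14 IP 2, P28 IP 1 or P28 IP 2 gave 1.834 to 1.845.

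Chrna10 (ENSMUSG00000066279, chr7:102111266-102116828, - strand) encodes alpha10, which joins alpha9 in the hair cell receptor. Its IP level was 27.4 and 44.3 CPM at P8, 9.39 and 8.76 at P14, 18.9 and 0 at P28, 6.24 and 7.42 at 6 weeks, and 34.6, 19.2 and 18.6 at 10 weeks. Its input level was 5.92 and 0.239 at P8, 0.454 and 4.01 at P14, 0.147 and 0.0695 at P28, 3.14 and 2.20 at 6 weeks, and 3.33, 4.14 and 5.49 at 10 weeks. IP was above input without overlap at P8, P14 (18.2% of all tested genes), 6 weeks and 10 weeks, that is at 4 of 5 ages. Of all tested genes 10.8% were so at 4 ages or more. P28 broke the pattern through P28 IP 2 alone, which had no Chrna10 read (an upper limit of 0.0635 CPM by counting error). P28 IP 1 had 629 reads. P28 input, with 8 and 3 reads, held the lowest levels of Chrna10 in input.

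Over all ages Chrna10 rose by 2.03 ± 0.43 (limma adjusted p = 5.33e-05), the largest change among the 5 tested genes. The means were 17.7 ± 13.4 CPM (SD, n = 11) in IP and 2.65 ± 2.17 (n = 11) in input. It was called in 34 of 34 alternatives, with changes from 1.63 to 3.20 and adjusted p up to 0.00597, and without the 3 libraries that stood apart it was 2.28 (limma adjusted p = 4.00e-06).

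At P8 Chrna10 was the 1 gene of the 8 called, at 2.88 ± 0.99 (limma adjusted p = 0.00957), beside 11.7% of all genes and 11.6% higher. Without P8 input 2 the change was 2.44 and the adjusted p 0.300, and without P8 IP 2 they were 2.43 and 0.124. At P14 the change was 2.17 ± 0.99 (limma adjusted p = 0.269), at P28 2.04 ± 0.99 (0.200), at 6 weeks 0.83 ± 0.99 (0.769) and at 10 weeks 2.21 ± 0.81 (0.105). At P28, leaving out P28 IP 2 gave 4.17 and an adjusted p of 0.0136. The value at 10 weeks passed without P28 IP 1 (0.0456), without P28 IP 2 (0.0459) and without the 3 libraries together (0.00245).

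Chrna10 overlaps Art1, a gene of the opposite strand with at most 6.01 CPM in IP (median 0.401) and 2.21 in input (median 0.332). Whether the authors' counting used the strand is not given in the sources used here, so that reads where the genes overlap cannot be assigned with certainty. Across the 11 IP libraries, log2(CPM + 1) of Chrna9 and Chrna10 had a Pearson r of 0.597 and 0.438 with that of the summed outer hair cell markers. Over the 9 libraries after P8, r was 0.653 and 0.135. The part of these markers in the changes was not tested. In bulk RNA, fewer cells of a type and less RNA per cell cannot be told apart.

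**Figure D1:**
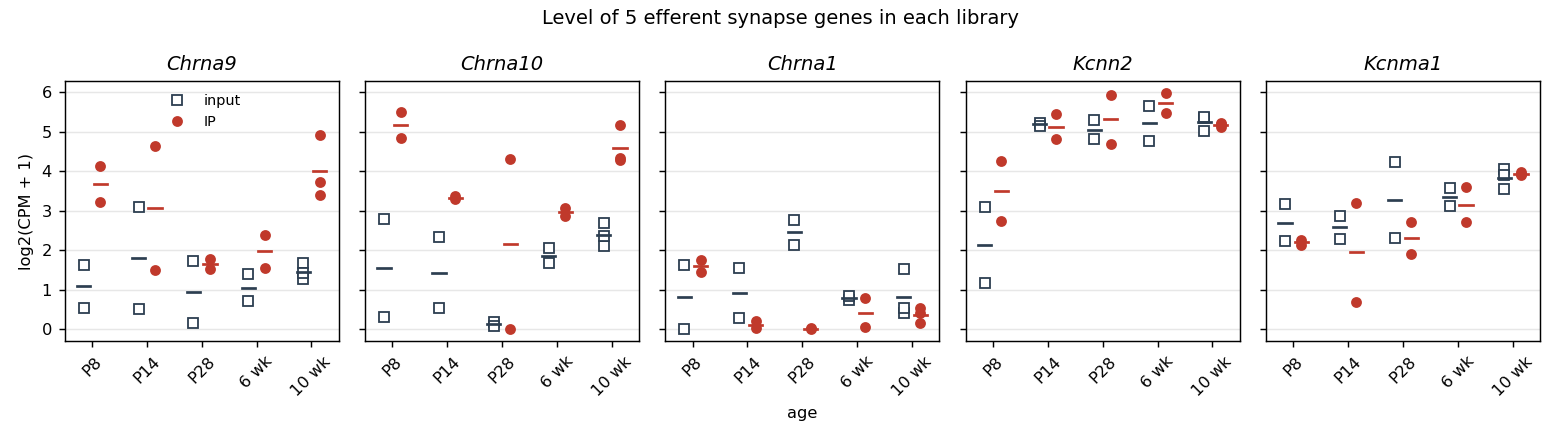
Level of the 5 genes that passed the minimum, as log2(CPM + 1), in each of the 22 libraries by age, with input as open squares, IP as filled circles and group means as lines. Chrna10 in IP lies above input at every age but P28, where 1 IP library has no read, and Kcnn2 is low in all 4 libraries of P8.

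The receptor subunits were compared per length, as CPM per kb of annotated exon (3026 bases for Chrna9, 2628 for Chrna10). In libraries with more than 3 reads of each, the ratio of Chrna10 to Chrna9 had a median of 2.12 in IP (0.451 to 8.94) and 2.75 in input (0.0699 to 10.6). Chrna10 was the higher in 9 of 10 IP libraries and 7 of 10 input libraries. Of these 10, P14 IP 1 was the IP library in which Chrna9 was higher, at 7.93 against 3.57 CPM per kb. P28 IP 2, which the minimum of reads left out, also had more Chrna9, at 0.615 against 0 CPM per kb (88 reads and none). At 10 weeks, the group of 3, the IP ratios were 1.37, 2.30 and 1.77, closer together than those of P8, P14 or 6 weeks. Across the 11 IP libraries log2(CPM + 1) of the 2 genes had a Pearson r of 0.583, and across the 11 input libraries 0.0383.

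**Figure D2:**
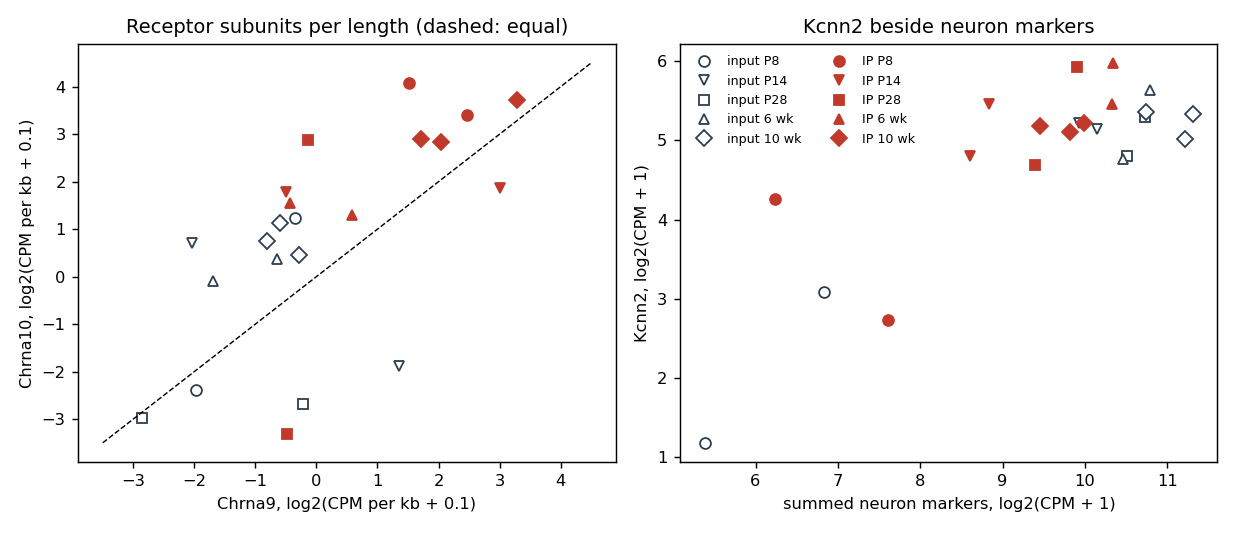
Left: Chrna10 against Chrna9 per length, log2(CPM per kb + 0.1), 1 point per library, with equality as a dashed line, above which most points lie. Right: Kcnn2 against the summed level of 8 neuron markers, both as log2(CPM + 1). The 4 libraries of P8 are low on both axes.

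In the order of group means, the 3 highest groups for Chrna9 were IP at 10 weeks (16.9 ± 10.6 CPM, SD, n = 3), P14 (12.9 ± 15.7, n = 2) and P8 (12.4 ± 5.68, n = 2), which overlapped each other. For Chrna10 they were IP at P8 (35.9 ± 11.9, n = 2), 10 weeks (24.1 ± 9.06, n = 3) and P28 (9.46 ± 13.4, n = 2), again with overlapping ranges from each to the next. IP at 6 weeks had 3.08 ± 1.61 CPM of Chrna9 and 6.83 ± 0.834 of Chrna10 (n = 2), both below IP at 10 weeks. The IP marker sum of outer hair cells was 449 and 450 CPM at 6 weeks and 517, 553 and 836 at 10 weeks.

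No age contrast of Chrna9 or Chrna10 passed. From P8 to P14 in IP Chrna9 changed by -0.22 ± 0.96 and Chrna10 by -1.46 ± 0.99 (limma adjusted p = 0.825 and 0.365). From P8 and P14 to 6 and 10 weeks in IP, the values were -0.67 ± 0.65 and -0.76 ± 0.67 (0.816 and 0.775). In input they were -0.61 ± 0.65 and 0.21 ± 0.67 (0.918 and 0.679).

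Chrna1 (ENSMUSG00000027107, chr2:73563215-73580338, - strand) encodes the acetylcholine-binding subunit of the muscle receptor. Its IP level was 2.34 and 1.75 CPM at P8, 0.155 and 0.0223 at P14, 0.0301 and 0 at P28, 0.733 and 0.0436 at 6 weeks, and 0.116, 0.325 and 0.454 at 10 weeks. Its input level was 2.11 and 0 at P8, 1.92 and 0.226 at P14, 5.84 and 3.41 at P28, 0.680 and 0.797 at 6 weeks, and 1.86, 0.326 and 0.452 at 10 weeks. The P8 IP libraries were above every later IP library, as were those of 11.2% of all tested genes. P28 input stood above every other library, as did that of 1.47%. IP was below input without overlap at P14 and P28, as were 31.2% and 26.3% of all tested genes.

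At P28 Chrna1 was the 1 gene of the 8 called, at -2.41 ± 0.62 (limma adjusted p = 0.00832), beside 8.33% of all genes and 5.17% lower. The input libraries had 318 and 147 reads, and the IP libraries 1 and 0, so that the size of the change depends on the pseudocount. It was called in 34 of 35 alternatives. In a fit of the 4 libraries of P28 alone, it had an adjusted p of 0.254. Over all ages Chrna1 fell by 0.79 ± 0.27 on the log2 scale with a limma adjusted p of 0.0499, at the threshold, and held in 15 of 34 alternatives. It was lost on leaving out any of 15 single libraries, with adjusted p up to 0.134 (without P14 input 1), and kept without the 3 libraries that stood apart (-0.90, limma adjusted p = 0.0110). Its changes at the other ages were 0.04 at P8, -0.52 at P14, -0.64 at 6 weeks and -0.45 at 10 weeks, and none passed. In IP, the change from P8 to P14 was -1.10 ± 0.62 (limma adjusted p = 0.209).

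Chrna1 is foremost a gene of skeletal muscle, whose markers are given beside it. Of 17 markers 14 were tested, and 1 was higher and 4 lower in IP over all ages, among them the titin gene Ttn (1.40 ± 0.41) and the myosin light chain gene Mylpf (-1.27 ± 0.32). Their summed level was 9.66 and 89.1 CPM in P28 input and 10.7 and 52.6 in P28 IP. P28 input 1, with the highest Chrna1, had the lower muscle sum of that pair. The muscle regulators Myod1 and Myog had no read in 21 and 19 of the 22 libraries. Across the 11 IP libraries, log2(CPM + 1) of Chrna1 had a Pearson r of -0.435 with that of the muscle sum. With the summed outer hair cell markers it was 0.682. Over the 9 IP libraries after P8, these were -0.0115 and -0.000479. In input they were 0.172 and 0.454 over 11 libraries, and -0.149 and 0.0606 over the 9 after P8. The part of muscle or outer hair cell RNA in the Chrna1 levels was not tested.

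Chrnd (ENSMUSG00000026251, chr1:87190607-87200070, + strand), the delta subunit of the muscle receptor, had 17 reads (0.264 CPM) in P8 input 1 and none in the other 21 libraries. Chrng (ENSMUSG00000026253, chr1:87204657-87212694, + strand), the gamma subunit that marks the embryonic form, had no read in any of the 22. Rapsn (ENSMUSG00000002104, chr2:91035620-91045729, + strand) had none either. By counting error alone, a count of 0 allows a level of up to 0.0422 to 0.0975 CPM, depending on the library. Replicates of a group differed by more than counting error. Rapsn overlaps Gm13778 on the opposite strand, which reached 7.69 CPM. How the authors' counting treated reads in such overlaps is not given, so a count of 0 for Rapsn does not show that it was absent.

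Kcnn2 (ENSMUSG00000054477, chr18:45268860-45686024, + strand) encodes SK2, the channel that turns calcium entry through the receptor into inhibition. In IP its level was 18.2 and 5.66 CPM at P8, 26.8 and 42.8 at P14, 24.8 and 59.8 at P28, 62.0 and 43.1 at 6 weeks, and 36.2, 35.2 and 33.4 at 10 weeks. In input it was 7.52 and 1.27 at P8, 36.2 and 34.5 at P14, 27.0 and 38.1 at P28, 48.9 and 26.3 at 6 weeks, and 39.3, 39.9 and 31.3 at 10 weeks. IP and input overlapped at every age. The change was 0.27 ± 0.32 over all ages (limma adjusted p = 0.341). By age it ran from -0.06 at 10 weeks to 0.63 at P8, and none passed. Without P8 input 1 it passed over all ages (0.31, limma adjusted p = 0.0371) and at P8 (0.52, limma adjusted p = 0.00303), where 8762 genes were then called.

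By age, the 4 libraries of P8 ran from 1.27 to 18.2 CPM of Kcnn2 and the 18 later ones from 24.8 to 62.0. Of all tested genes, 0.881% were likewise lower in every P8 library than in every later one, while no age contrast of Kcnn2 passed on CPM as deposited. After TMM scaling the ranges were 4.54 to 14.6 and 24.7 to 67.0, and the P8 input pair moved from 7.52 and 1.27 to 5.98 and 7.82. The change from P8 to P14 in IP was 2.003 ± 0.74 on CPM as deposited and did not pass (limma adjusted p = 0.259). It passed under 8 of 33 alternatives, among them TMM scaling (2.28, limma adjusted p = 0.00343), quantile normalization (2.03, 0.00502), the fit without the 3 libraries that stood apart (2.06, 0.0340) and leaving out P8 input 1 (0.0414) or P8 input 2 (0.0424). It had the same sign in all 33, from 1.32 to 2.66. None of the 8 genes was called in that contrast on CPM as deposited, beside 1.93% of all genes. An unadjusted p under 0.05 was found for 2 of them, Kcnn2 and Chrna1, as for 2923 of 18737 genes in all. edgeR and DESeq2 called Kcnn2 there and no other of the 8, with 2362 genes in all called by DESeq2.

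From P8 and P14 to 6 and 10 weeks Kcnn2 changed by 0.84 ± 0.50 in IP and 1.14 ± 0.50 in input (limma adjusted p = 0.215 and 0.0724). Without P8 input 1 the input value was 1.07, with P8 input 2 as the only P8 input library. The IP value was 0.838 without P8 input 1 and 0.841 without P8 input 2. None of the 8 genes was called in either contrast by the reported fit, beside 3.43% of all genes in IP and 2.75% in input. In IP, Kcnn2 and Kcnma1 had an unadjusted p under 0.05, as did 3223 of 18737 genes in all. In input Kcnn2 did, as did 2737 genes in all. DESeq2 called Kcnn2 in input, and edgeR called none of the 8 in either.

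Neurons also express Kcnn2, and spiral ganglion markers were lowest at P8 as well. Of 8 such markers, 0 were higher and 3 lower in IP over all ages, led by Thy1 (-1.35 ± 0.32) and the synaptic gene Snap25 (-1.32 ± 0.29). Their sum was 40.7 and 113 CPM in P8 input and 74.7 and 195 in P8 IP, against 977 to 2545 in later input and 387 to 1300 in later IP libraries. Across 11 input libraries, log2(CPM + 1) of Kcnn2 and of this sum had a Pearson r of 0.956, which was 0.212 over the 9 libraries after P8. In IP the values were 0.725 and 0.580. Schwann cell markers were low at P8 too, at a sum of 869 and 150 CPM in input and 371 and 685 in IP, against at least 1406 in later input and 734 in later IP libraries. Their Pearson r with Kcnn2 was 0.939 over 11 input libraries and 0.146 over the 9 after P8, and in IP 0.688 and 0.608. The part of neuronal or Schwann cell RNA in the Kcnn2 levels was not tested.

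Per length, Kcnn2 (7468 bases of exon) stood lower than the receptor in the median IP library and higher in the median input library. The ratio of Kcnn2 to the sum of Chrna9 and Chrna10 had a median of 0.416 in IP (0.0387 to 13.01) and 2.65 in input (0.342 to 78.8). In IP the lowest ratios were those of P8, 0.154 and 0.0387, and the highest that of P28 IP 2, which had no Chrna10 read. At 10 weeks the IP ratios were 0.213, 0.449 and 0.404 and the input ratios 2.65, 2.61 and 1.58, without overlap.

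Kcnma1 (ENSMUSG00000063142, chr14:23289431-24014491, - strand) encodes the BK channel. In IP its level was 3.82 and 3.37 CPM at P8, 0.620 and 8.18 at P14, 5.59 and 2.77 at P28, 5.58 and 11.04 at 6 weeks, and 14.1, 13.9 and 14.9 at 10 weeks. In input it was 7.95 and 3.70 at P8, 6.30 and 3.91 at P14, 17.8 and 3.96 at P28, 10.9 and 7.62 at 6 weeks, and 10.7, 15.5 and 13.9 at 10 weeks. The 3 IP libraries of 10 weeks lay above the other 8, as did those of 4.07% of all tested genes, while IP and input overlapped at every age. Its change between IP and input was -0.57 ± 0.40 over all ages (limma adjusted p = 0.416) and between -1.24 (P8) and 0.11 (10 weeks) by age. From P8 and P14 to 6 and 10 weeks it changed by 1.18 ± 0.62 in IP and 0.52 ± 0.62 in input (limma adjusted p = 0.188 and 0.492). Without P14 IP 2, the IP value was 1.65 and passed (0.0368).

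**Figure D3:**
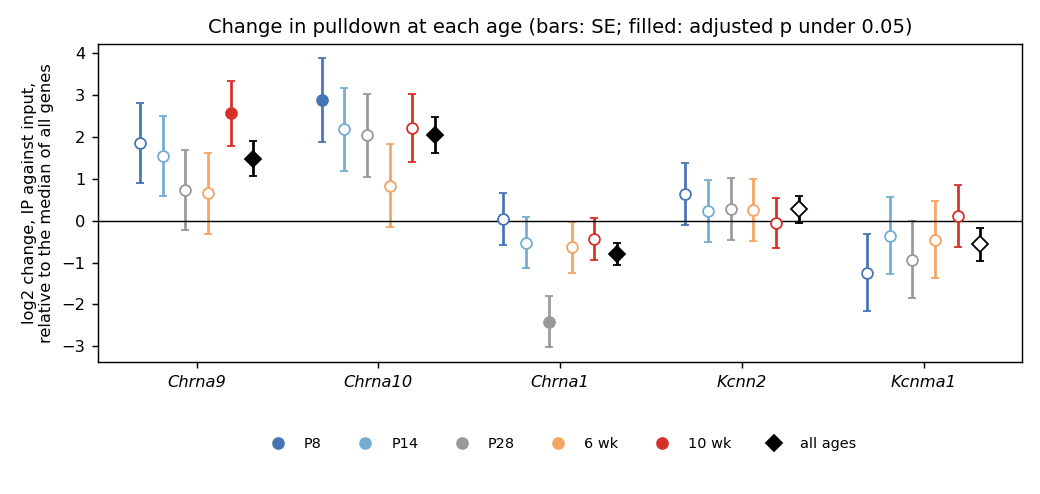
Change between IP and input on the log2(CPM + 1) scale, relative to the median of all genes, at each age and over all ages, with bars of 1 SE and filled symbols where the adjusted p was under 0.05. Chrna10 is filled at P8, Chrna9 at 10 weeks and Chrna1 at P28, and all 3 over all ages, while Kcnn2 and Kcnma1 have open symbols throughout.

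At P14 and 6 weeks none of the 8 genes was called between IP and input, beside 4.35% and 1.29% of all genes. None of them had an unadjusted p under 0.05 at those ages, and edgeR and DESeq2 called none of them there. Of differences between ages in enrichment, only the change of IP minus input from P8 and P14 to 6 and 10 weeks was tested. limma called none of the 8 genes and 0 of 18737 in all, with 622 genes at an unadjusted p under 0.05 and none of the 8 among them. edgeR called 21 genes and DESeq2 240, with none of the 8. The estimates were -0.04 ± 0.92 for Chrna9, -0.95 ± 0.95 for Chrna10, -0.25 ± 0.59 for Chrna1, -0.27 ± 0.71 for Kcnn2 and 0.68 ± 0.88 for Kcnma1. This contrast leaves out P28 and pools P8 with P14 and 6 with 10 weeks, so it cannot compare single ages. Whether enrichment at 1 age differed from that at another, such as Chrna1 at P28, was not tested. A call at 1 age and not at another is not shown to be a difference between ages.

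The other genes of the pathway were described over all ages by counts and medians, beside the 20.0% of genes higher and 12.5% lower in that comparison. Of 11 other nicotinic subunits, 9 were tested and none passed, with a median change of -0.15. Of 11 genes for clustering and assembly of receptors, 0 were higher and 3 lower (median -0.24). These were Tmem35a (-1.77 ± 0.41), which encodes the receptor chaperone NACHO, Unc50 (-1.60 ± 0.37), linked to nicotinic receptor trafficking, and Sntb1 (-1.28 ± 0.39), a syntrophin. Of 7 genes of acetylcholine synthesis, transport and breakdown, 5 were tested and 1 was lower, the cholinesterase gene Bche (-1.26 ± 0.41). The cell bodies of efferent neurons lie in the brainstem, outside the organ sampled. Of 5 muscarinic receptors none passed.

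Among 12 SK channel relatives and partners, 1 was higher and 4 lower (median -0.47). Kcnn3, another SK channel, was higher (0.65 ± 0.31, limma adjusted p = 0.0448). Among the lower were Ppp2r1a (-1.45 ± 0.29) and Csnk2b (-1.44 ± 0.34), of the phosphatase and the kinase that set the calcium sensitivity of SK2, and the calmodulin gene Calm3 (-0.91 ± 0.31). Of 8 BK auxiliary subunits 5 were tested, with Lrrc55 higher (0.88 ± 0.35) and Lrrc26 lower (-0.88 ± 0.27).

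Calcium store and pump genes had 4 of 13 higher and 1 lower, with a median of -0.11. Higher were Atp2b2 (1.08 ± 0.29), the calcium pump of the hair bundle, and the ryanodine receptors Ryr2 (1.06 ± 0.38), Ryr3 (0.88 ± 0.37) and Ryr1 (0.80 ± 0.32), release channels of calcium stores such as the cistern under the efferent synapse. Atp2a3, a pump that fills stores, was lower (-1.32 ± 0.36). Of 9 receptors for other efferent transmitters, 0 were higher and 2 lower, the ATP receptor P2rx2 (-1.67 ± 0.36) and Ramp1 (-1.48 ± 0.43), a partner of the receptor for the peptide CGRP.

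**Figure D4:**
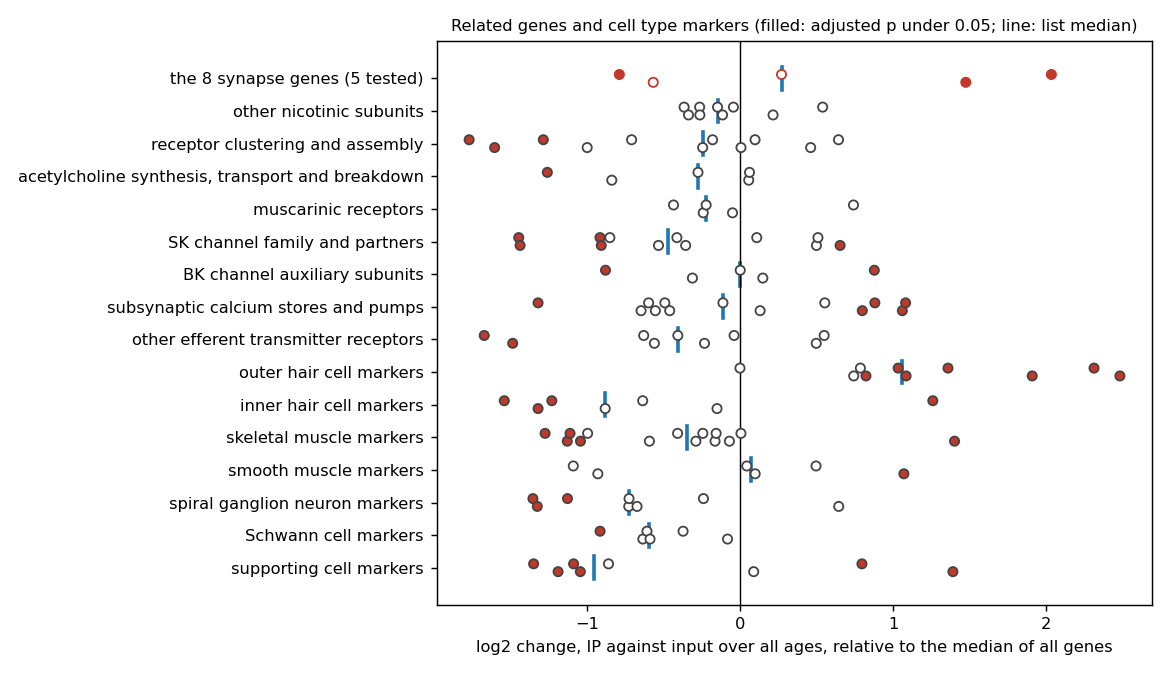
Change between IP and input over all ages for each tested gene of the synapse, of 8 related gene lists and of 7 cell type lists, on the log2(CPM + 1) scale relative to the median of all genes, with filled points called and a line at each list's median. Chrna10 (2.03) and Chrna9 (1.47) lie above every tested gene of the 8 related lists, the highest of which is Atp2b2 (1.08).

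Likeness to the synapse genes was measured as the Pearson r of log2(CPM + 1) across the 11 IP libraries, over the 10845 genes whose IP mean was 5 CPM or more. Nearest to Chrna9 were Pstk (0.937), Wdr33 (0.854), Tmem184a (0.846), Cul4a (0.837) and Fbln1 (0.835). Without the 2 IP libraries farthest from the median of Chrna9, r was between 0.773 and 0.978 for these 5. Nearest to Chrna10 were Sirt6 (0.976), Arhgef38 (0.953), Zfp40 (0.947), Eif4a1 (0.945) and Pls1 (0.945), with 0.814 to 0.950 without its 2 farthest libraries. Nearest to Kcnn2 were Gpr37l1 (0.964), Sult4a1 (0.950), Senp6 (0.947), Gas7 (0.942) and Lyz2 (0.942), and without both P8 libraries r was 0.701 to 0.937. The libraries share age, depth and composition, and these values are descriptions picked as the highest of many.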

How the data were processed

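The authors deposited 1 table of CPM per library. The aligner was TopHat and the build GRCm38, per the submitters' processing notes, and the library kit kept the strand, per the labels' protocols. The version of TopHat, the counting tool and whether counting used the strand: not given in the sources used here. Values summed to 1000000 a library, of which 5 entries without a gene name took 32.9% to 72.3% of reads. These stayed out of all tests. All values (100%) were whole reads within a tolerance of 0.01 read. Symbols, gene positions and exon lengths came from GENCODE M21, and sequences from RefSeq.

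limma 3.58.1 (R 4.3.3, trended prior) was fitted to log2(CPM + 1) for genes at 1 CPM or more in at least 2 libraries, with 1 mean for each of 10 groups of age and fraction, and 10 contrasts were tested. The procedure was tested on simulated reads. Alternatives were a pseudocount of 0.25, no filter, TMM scaling, CPM over gene reads, quantile normalization, fewer libraries, leaving out each library, and a replicate block. No label says what the replicate numbers share. At 10 weeks the deviations of IP and input of 1 number correlated at 0.11 to 0.22, each of the 3 best with its own number. The reported fit had no term for these numbers at any age, and only the replicate block did. Added after seeing the data were a robust prior, TMM without 3 libraries, and edgeR 4.0.16 and DESeq2 1.42.0 on the recovered reads, which called 3 of the 8 genes each over all ages. Genes were named as the 8 synapse genes, called genes of the lists (up to 5 a pathway list, and up to 3 a cell type list beside Slc26a5, Ikzf2 and Ocm) and the 5 most alike to Chrna9, Chrna10 and Kcnn2. Of the genes this rule names, 1 is not reported here. The 8 genes and all lists were chosen with earlier results of these data known.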

Additional observations from a re-analysis of the deposited data

How the results depend on the processing

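Over the alternatives, 287 of 343 counts of called synapse genes were within 1.5 times the reported one and 56 were not, and no change that was called reversed. The 3 genes called over all ages were 2 or 3 under each alternative run. At P8 the count of 1 became 0 without the filter, with only the libraries compared, with edgeR and with the replicate block joined to TMM scaling, 2 with the replicate block or a robust prior, and 0 to 4 on leaving out single libraries. At P28 the count of 1 became 0 with only the libraries compared, 2 without the 3 libraries that stood apart (with and without TMM scaling), with edgeR and with DESeq2, and 1 to 2 on leaving out single libraries. At 10 weeks the count of 1 became 0 with a pseudocount of 0.25, without the filter and with edgeR, 2 with quantile normalization, only the libraries compared, without the 3 libraries (with and without TMM scaling) and DESeq2, and 0 to 2 on leaving out single libraries. From P8 to P14 in IP the count of 0 became 1 with TMM scaling, quantile normalization, without the 3 libraries (with and without TMM scaling), edgeR and DESeq2, and 0 to 1 on leaving out single libraries. From P8 and P14 to 6 and 10 weeks it became 1 in IP with quantile normalization, 1 in input with CPM over gene reads, quantile normalization, TMM scaling without the 3 libraries and DESeq2, and 0 to 1 in either on leaving out single libraries. The cause was not tested. Counts over all genes moved by more than that in 143 of 343, from 4936 to 9438 over all ages (6087 reported), 0 to 8762 at P8 (2186) and 117 to 7606 at 10 weeks (789). The change of enrichment, with 0 genes called, had its highest count without P8 input 1, as did P8. P8 input 2, the library rich in Gm42418, was then the only P8 input library. The reported fit did not treat IP and input of 1 number as pairs at any age. The correlation of their deviations was -0.02 at P8, 0.08 at P14, 0.04 at P28, 0.35 at 6 weeks and 0.11 to 0.22 at 10 weeks. The replicate block moved no other count of these genes by over 1.5 times. With 2 or 3 libraries a group, Chrna10 and Chrna9 levels that differ between replicates by the amounts given limit every test by age.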
